A study of Populus euphratica with 12 samples.

Results

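In the juvenile leaves of *Populus euphratica*, a desert poplar, 144 mRNAs had a mean level that rose step by step over its 4 leaf shapes. A member was an mRNA whose group mean in FPKM (fragments scaled to the length of the transcript and the mapped fragments of the library) was lower in linear (Li) than in lanceolate (La) leaves, lower in La than in ovate (Ov) leaves and lower in Ov than in broad-ovate (Bo) leaves. Its Bo mean also had to reach 5 FPKM, and its lowest Bo library had to hold at least 2 times the level of its highest Li library. Of 49676 mRNAs listed, 3805 had means in this order and 1841 of these reached the Bo level, and 144 (0.290% of those listed) met the whole rule, below the limit of 200 set for it. The 144 mRNAs came from 143 genes, and 120 of them had a product name in the study's annotation. The count moved when 1 library was left out, to 311 without Li1, 271 without Bo1 and 231 without Bo3, and 143, 141 and 95 of the 144 were still among them. It fell to 107 without Ov2 and 127 without Ov3, with 94 and 99 of the 144 still among them. Without La2 it was 132 and without La3 133, and 115 of the 144 stayed in each case.

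The libraries were made from second juvenile leaves of trees aged 0 to 3 years (Li), 4 to 6 years (La), 8 to 12 years (Ov) and over 20 years (Bo), with 3 libraries in each group and no other treatment. Leaf shape and tree age changed together over the 12 libraries and cannot be told apart. Total RNA was depleted of ribosomal RNA and sequenced by strand. The study describes the 3 libraries of a group as biological replicates. Whether each came from a tree of its own is not stated, and p-values measure the spread between these samples.

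Heterophylly is the growth of differently shaped leaves on 1 plant species, often in an order that follows the age of the shoot. In many plants the passage from juvenile to adult leaves is controlled by SPL (squamosa promoter-binding-like) transcription factors, which the microRNA miR156 holds low in young shoots. Some SPL factors also act on MADS-box genes of flowering, so leaf phase and flowering time share regulators. Leaf outline itself depends on where and for how long cells divide and expand, which auxin, gibberellin, ethylene and brassinosteroid all affect.

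Every mRNA value in the 4 groups was used to choose the members, so their levels are given as a description. At the edge of the rule, 3-ketoacyl-CoA synthase 11-like (XM_011029116.1), a wax and fatty acid elongation enzyme, had a lowest Bo level 2.00086 times its highest Li level. The ribosomal protein 40S S14 (XM_011007761.1) reached 1.98676 times and was left out. The lowest Bo mean among members was 5.11 FPKM, in RING-H2 finger protein ATL22-like (XM_011033630.1), and the nearest mRNA left out (XM_011044002.1) had 4.99925 FPKM.

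The rise was neither even nor separated at every step. On the log2(FPKM + 1) scale the median difference was 0.95 from Li to La, 0.42 from La to Ov and 0.70 from Ov to Bo, and 2.20 from Li to Bo (range 1.14 to 5.12), against 0.07 from Li to Bo over the 32309 mRNAs tested. The median member had reached 45.5% of its Li to Bo difference at La and 68.8% at Ov. The step from Li to La was the largest for 80 members and that from Ov to Bo for 50, whereas that from La to Ov was the largest for 14. Levels per transcript length ranged widely, with a median Li mean of 1.76 FPKM and a median Bo mean of 14.9 FPKM. The highest Bo mean, 6253 FPKM, was that of metallothionein-like protein type 2 (XM_011021570.1), a small metal-binding protein. In whole-leaf RNA, fewer cells of a type and less RNA per cell cannot be told apart.

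Single libraries separated the groups less well than the means did. All La libraries lay above all Li libraries for 76 members (12.6% of all mRNAs tested did so), and all Ov above all Li for 96 (15.1%). Between La and Ov the ranges of the libraries overlapped for all but 5 members (3.1% of all mRNAs tested were so separated). All Bo lay above all Ov for 35 members (6.5%) and above all La for 66 (7.62%), and no member had its 4 groups separated from one another. These shares follow from the rule and carry no weight of their own.

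Some libraries stood apart within their groups. In Li it was Li1, the highest Li library for 81 members (56.3%, against 41.0% of all mRNAs tested). La3 was the highest La library for 98 members (68.1%, against 32.9% of all mRNAs tested), Bo3 was the highest Bo library for 93 (64.6%, against 33.7%), and Ov2 was the lowest Ov library for 74 (51.4%, against 29.4%). For 48 members (33.3%) La3, Ov3 and Bo3 were each the highest of their group, against 9.33% of all mRNAs tested. Set between its Li mean (0%) and its Bo mean (100%), the median member stood at 41.2% in La1 and 38.4% in La2 but at 70.1% in La3, above the 68.5% of Ov1 and the 61.3% of Ov2. Ov3 stood at 81.0%, and Bo1, Bo2 and Bo3 at 90.4%, 95.5% and 114%. Between libraries of the same number, Ov lay above La in all 3 pairs for 53 members, in 2 pairs for 74 and in 1 pair for 17. Over all mRNAs tested, the median deviation of a library from its group mean stayed within -0.09 and 0.09 on the log2 scale. La3, Ov3 and Bo3 had the lowest of these medians in their groups. Non-members could also split by these libraries, as did the cell cycle kinase CDKB2;1 (XM_011042835.1; chosen after its values were seen), with 78.7, 76.7 and 10.8 FPKM in Bo.

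**Figure D1:**
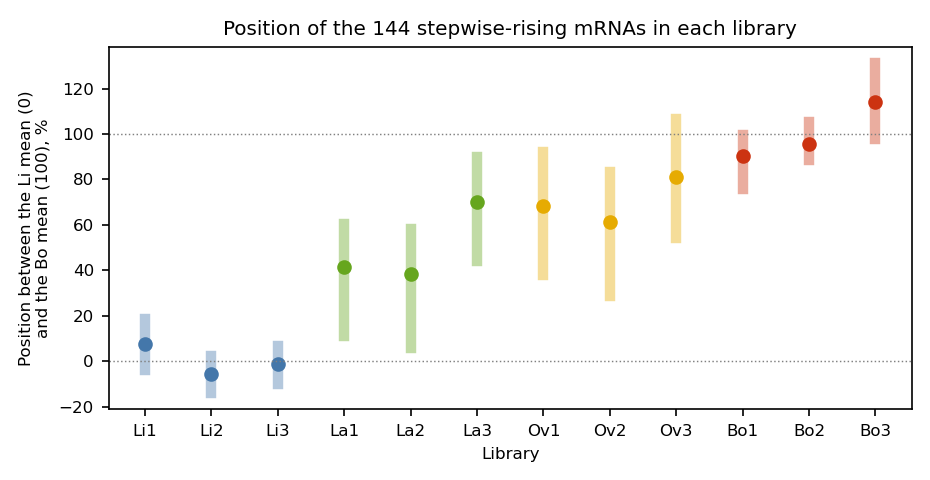
Position of the 144 members in each library on a scale from the Li mean (0%) to the Bo mean (100%), computed on log2(FPKM + 1); points are medians over members and bars span the 25th to 75th percentile. Li and Bo lie near 0% and 100% by construction, La3 (70.1%) stands above La1, La2, Ov1 and Ov2, and Bo3 (114%) is the highest.

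The regulators of flowering time and phase comprised 7 members, with 3 MADS-box factors named JOINTLESS-like, 2 SPL factors, a CEN-like protein and a CAULIFLOWER-like MADS-box factor. Their Li to Bo differences ran from 1.37 to 4.45 on the log2 scale (median 2.29). In 6 of the 7 the highest library was a Bo library, as in 122 of all 144 members, which follows largely from the rule. SPL9 (squamosa promoter-binding-like protein 9, XM_011034944.1), whose Arabidopsis namesake promotes the adult leaf form, stood at 4.71, 5.69 and 4.92 FPKM in Li, 9.44, 4.82 and 6.58 in La, 30.7, 6.40 and 9.88 in Ov, and 29.7, 24.7 and 24.2 in Bo. Its Bo libraries lay far above all of Li and La, while Ov1 alone lay above every Bo library and Ov2 and Ov3 lay among or near the La values. SPL16 (XM_011022481.1) held 8.13, 8.49 and 8.54 FPKM in Li, 15.1, 11.6 and 16.0 in La, 15.5, 14.0 and 15.6 in Ov, and 24.1, 28.2 and 18.6 in Bo. For SPL16 the Li and Bo libraries stood clear of all others on either side, and La and Ov overlapped.

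JOINTLESS, known from tomato for the joint of the flower stalk, belongs to the MADS-box group of SVP, which delays flowering in Arabidopsis. The JOINTLESS-like mRNA of LOC105124649 (XM_011024751.1) rose from 0.743, 1.40 and 4.08 FPKM in Li to 18.6, 9.40 and 15.1 in La, 56.3, 19.1 and 31.5 in Ov, and 63.6, 53.6 and 61.9 in Bo. Li, La and Ov did not overlap in this mRNA, and only Ov1 reached into the Bo range. Its neighbour LOC105124650 (XM_011024752.1) held 0.947, 0.387 and 1.12 FPKM in Li, 5.33, 1.51 and 2.13 in La, 19.8, 3.13 and 3.80 in Ov, and 51.6, 37.4 and 25.2 in Bo. Most of this second rise fell between Ov and Bo, where the libraries did not overlap. The annotated spans of both genes overlap in the RefSeq gene table, so reads may have been divided between them and each value is uncertain. The third JOINTLESS-like mRNA, of LOC105138623 (XM_011044761.1), held 11.9, 7.16 and 16.1 FPKM in Li, 39.8, 44.7 and 47.9 in La, 42.4, 48.9 and 50.1 in Ov, and 58.1, 56.2 and 55.4 in Bo. Its main step was thus the first, from Li to La.

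CEN-like protein 2 (XM_011008977.1) belongs to the family of CENTRORADIALIS and TFL1, which keep shoot tips vegetative in snapdragon and Arabidopsis. It stood at 6.04, 21.0 and 25.4 FPKM in Li, 24.0, 8.87 and 67.4 in La, 112, 22.5 and 64.6 in Ov, and 93.8, 103 and 117 in Bo. The Bo libraries were close together, whereas Ov1 was as high as Bo and Ov2 as low as Li. The truncated CAULIFLOWER D-like mRNA (XM_011025682.1), named for a floral meristem factor, held 8.28, 4.02 and 9.97 FPKM in Li, 11.9, 10.6 and 35.6 in La, 34.6, 29.4 and 47.3 in Ov, and 25.0, 41.3 and 53.3 in Bo. Ov and Bo overlapped fully in it, and La3 stood with them.

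**Figure D2:**
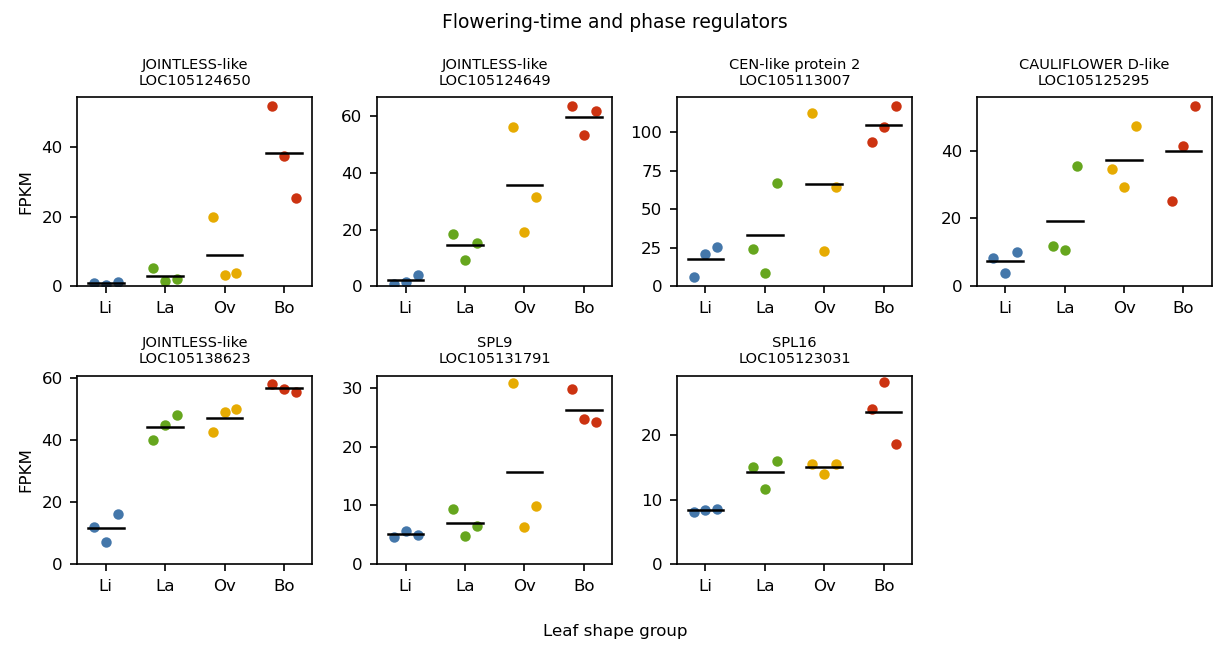
FPKM of the 7 flowering-time and phase regulators in each library of the 4 leaf shape groups; points are libraries 1 to 3 from left to right and black lines are group means, with each vertical axis starting at 0. In SPL9 the Ov1 point (30.7 FPKM) lies above all 3 Bo points, and in LOC105138623 the step from Li to La is the largest.

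The 9 members of hormone pathways rose mainly at the first step, with 8 of 9 having their largest step from Li to La and a median of 66.6% of the rise reached at La. Over all 144 members these values were 80 and 45.5%, and for the 19 uncharacterized members 14 and 60.4%, so an early rise was not particular to this role. None of the 9 had all Bo libraries above all Ov libraries, beside 35 of the 144 members. Gibberellin-regulated protein 1-like (XM_011046794.1), a small cysteine-rich GASA protein, had the largest log2 difference of all members (5.12). Its FPKM were 26.7, 5.78 and 14.0 in Li, 155, 98.6 and 718 in La, 253, 227 and 912 in Ov, and 232, 400 and 1273 in Bo. The libraries La3, Ov3 and Bo3 were each more than 3 times the next of their group, and La, Ov and Bo overlapped.

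Ethylene was represented by synthesis, response and turnover genes. The mRNA of 1-aminocyclopropane-1-carboxylate synthase 1-like (XM_011024974.1), which makes the precursor of ethylene, held 2.89, 1.34 and 2.42 FPKM in Li, 24.0, 13.8 and 49.0 in La, 15.1, 23.3 and 67.3 in Ov, and 12.7, 31.0 and 83.8 in Bo. An ethylene-responsive transcription factor 1B-like (XM_011031532.1) held 1.97, 0.544 and 0.245 FPKM in Li, 7.76, 13.8 and 3.66 in La, 1.10, 22.0 and 4.75 in Ov, and 14.3, 13.7 and 86.1 in Bo. In both mRNAs the Bo mean rested largely on Bo3, and Ov1 of the second lay within the Li range. EIN3-binding F-box protein 1-like (XM_011017944.1), which marks EIN3 factors for breakdown in Arabidopsis, had a like split in Bo, with 6.11 and 7.03 FPKM in Bo1 and Bo2 and 25.7 in Bo3. For auxin, the auxin-repressed 12.5 kDa protein-like mRNA (XM_011038207.1) had group means of 1.66 ± 1.19 FPKM for Li (SD, n = 3), 13.9 ± 16.3 for La, 37.5 ± 30.6 for Ov and 43.5 ± 44.0 for Bo. Its SD exceeded its mean in La and in Bo. The repressor of auxin response IAA14-like (XM_011032284.1) had a narrower spread, with 76.9, 62.5 and 62.4 FPKM in Li and 163, 169 and 175 in Bo.

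Bo3 held at least 2 times the level of both Bo1 and Bo2 for 35 members, of which 7 were of hormone pathways and 11 had no product name. The opposite pattern, Bo1 and Bo2 each at least 5 times Bo3, was found in 10 members, of which 9 had no product name and the other was epoxide hydrolase 4 (XM_011027498.1). In these 10 the Bo group was split, and the rule was met because even Bo3 held at least 2 times the highest Li level. How many of all mRNAs tested had either split was not counted, so neither is given as a trait of the members.

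The 24 members without a product name moved late in their group means. Their median log2 difference was 2.89, the median share of the rise reached at La was 21.6%, and 15 of the 24 had their largest step from Ov to Bo. All Bo libraries lay above all Ov libraries for only 4 of the 24, beside 35 of all 144 members. In 9 of the 24, Bo1 and Bo2 were each at least 5 times Bo3, so the late step was not one of all Bo libraries. Names came only from mRNAs that the study had chosen on these samples, or from other mRNAs of the same genes. Lacking a name is thus not a role, and the pattern of this group is not independent of that choice. The mRNA of LOC105124646 (XM_011024747.1), which had the highest ratio of Bo to Li means with 1 FPKM added to each, stood at 0.294, 0.258 and 0.432 FPKM in Li, 0.520, 0.278 and 8.83 in La, 3.35, 1.08 and 9.47 in Ov, and 120, 157 and 2.95 in Bo. Bo3 thus lay below La3, Ov1 and Ov3, far from the other Bo libraries. LOC105120996 (XM_011019456.1) was below 0.5 FPKM in Li, La, Ov and Bo3, and held 50.6 FPKM in Bo1 and 38.2 in Bo2. By contrast, LOC105129448 (XM_011031526.1) was even in Bo, with 19.7, 20.1 and 30.8 FPKM, and held at most 0.536 FPKM in Li.

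**Figure D3:**
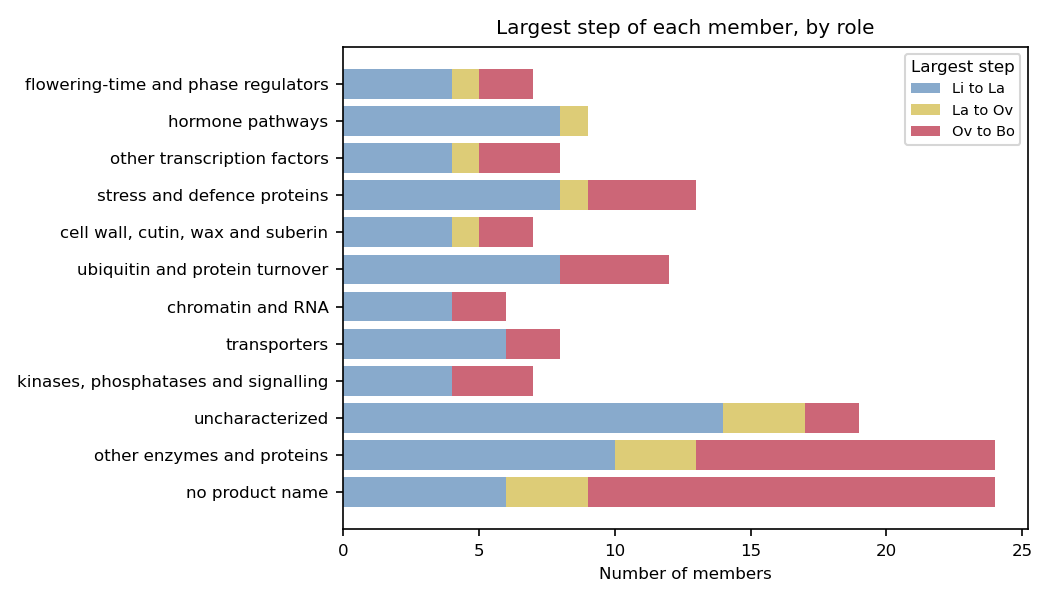
Number of members, by the role given in their product name, whose largest difference in group mean of log2(FPKM + 1) fell from Li to La, from La to Ov or from Ov to Bo; bars start at 0. Hormone pathway members have 8 of 9 at the first step, and members without a product name have 15 of 24 at the last. Over all 144 members these steps have 80 and 50. Lacking a product name is not a role, since the study named only mRNAs it had chosen on these samples.

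Some members lay close together in the gene order of the RefSeq table, and no share over all genes is given beside this. Of 143 member genes, 6 fell within a stretch of 11 protein-coding genes, in the order LOC105124641, LOC105124639, LOC105124695, LOC105124646, LOC105124650 and LOC105124649, the last pair being the JOINTLESS-like genes above. The first 4 had no product name and were among the 10 members in which Bo1 and Bo2 were at least 5 times Bo3. Their sequences were not compared, so whether reads were divided between these 4 is unknown, and they may not be independent. LOC105124695 (XM_011024798.1) held 60.4, 72.5 and 0.773 FPKM in Bo, and LOC105124641 (XM_011024742.1), listed at 0 in all Li libraries, held 15.6, 33.0 and 0.516 in Bo. LOC105124639 (XM_011024741.1) held 23.3, 30.9 and 1.94 FPKM in Bo. All 4 mRNAs shared the further features that La3 was the highest La library and Ov3 the highest Ov library. The same held for LOC105137796, LOC105131445 and LOC105126828, members outside the stretch with the same split in Bo. The profile was thus not particular to the stretch. The JOINTLESS-like pair did not share the split in Bo.

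The other genes of the stretch were not members. The mRNA XM_011024748.1 of LOC105124647, between both sets, held 8.66, 10.7 and 9.79 FPKM in Li and 53.5, 42.5 and 19.1 in Bo, a log2 difference of 1.76 that did not pass the test over all mRNAs (limma, adjusted p = 0.0987). In this mRNA too, La3 (35.0 FPKM) and Ov3 (21.5 FPKM) were the highest of their groups. The main mRNA of LOC105124651 (XM_011024755.1) was level, at 14.4, 18.1 and 20.2 FPKM in Li and 17.2, 17.7 and 17.2 in Bo (adjusted p = 0.994). The annotated lncRNA next to LOC105124641, whose values the rule did not use, did not pass the test. This lncRNA (XR_842095.1) held 6.49, 20.6 and 17.2 FPKM in Li and 3.82, 25.8 and a value near 0 in Bo, with overlapping groups (limma, adjusted p = 0.508).

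**Figure D4:**
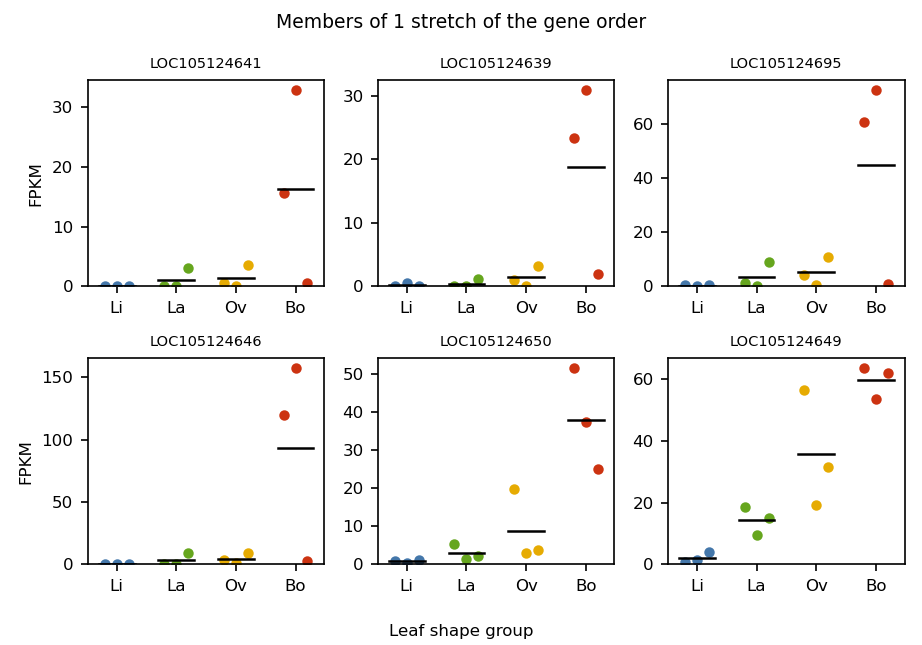
FPKM in each library of the 6 members that lie in 1 stretch of 11 protein-coding genes, in their order along it; points are libraries 1 to 3 from left to right and black lines are group means, with each vertical axis starting at 0. In the first 4 genes Bo3 lies far below Bo1 and Bo2 (LOC105124646 at 120, 157 and 2.95 FPKM), whereas in the JOINTLESS-like genes LOC105124650 and LOC105124649 all Bo libraries are above 25 FPKM.

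Apart from this stretch, LOC105137796, LOC105137803 and LOC105137807 lay within 9 genes, and 3 further pairs of members lay at most 5 genes apart. The other 260 genes directly beside a member were not members. Of their 311 mRNAs tested for Bo against Li, 0 passed at an adjusted p under 0.05 (limma; smallest 0.0506), and 63 (20.3%) had an unadjusted p under 0.05, against 18.6% of all mRNAs tested. Their median log2 difference was 0.13, beside 0.07 over all mRNAs tested.

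Among the neighbours with the lowest p, 3 had the product name of the member beside them. The second GASA mRNA, of LOC105140101 (XM_011046793.1), held 63.9, 4.67 and 6.48 FPKM in Li and 124, 162 and 270 in Bo, a log2 difference of 3.65 ± 0.83 (SE; adjusted p = 0.0789). It fell outside the rule because Li1 was high. A JOINTLESS-like mRNA of LOC105138621 (XM_011044759.1), beside LOC105138623, held 17.9, 11.1 and 19.1 FPKM in Li and 51.0, 48.4 and 29.8 in Bo (1.37 ± 0.32, adjusted p = 0.0800). The ERF1B-like mRNA of LOC105128708 (XM_011030494.1) held 1.08, 0.334 and 1.39 FPKM in Li and 2.68, 2.89 and 5.09 in Bo (1.24 ± 0.29, adjusted p = 0.0845). Like copies can share reads, so these values are not independent of the members beside them.

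The other transcription factors among the members were 2 MYB factors, 2 WRKY factors, 2 B-box factors, a BEL1-like homeodomain factor and the zinc finger factor ZAT11-like. The MYB-related Zm38-like mRNA (XM_011047545.1) stood at 7.53, 1.97 and 2.76 FPKM in Li, 27.6, 16.0 and 37.4 in La, 37.6, 33.2 and 76.0 in Ov, and 27.0, 39.0 and 90.4 in Bo. It was high in all groups but Li, and La, Ov and Bo overlapped. MYB108-like (XM_011017928.1), from a group of MYB factors known in stress responses, held 3.23, 1.30 and 3.10 FPKM in Li and 9.66, 18.3 and 53.8 in Bo. B-box zinc finger protein 20-like (XM_011038883.1), of a family that acts in light signalling, lay between 1.32 and 4.88 FPKM in all Li, La and Ov libraries and held 12.6, 10.5 and 11.6 in Bo. Its last step alone separated libraries.

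Among the 13 stress and defence members were 2 osmotin-like mRNAs, which code for antifungal proteins of the thaumatin family. The first (XM_011030919.1) held 6.32, 3.91 and 4.62 FPKM in Li, 41.4, 25.0 and 102 in La, 101, 43.5 and 89.0 in Ov, and 62.2, 67.3 and 122 in Bo, so that La already stood above Li in every library. The second (XM_011018508.1) was less regular, with 3.61, 0.623 and 0.852 FPKM in Li, 8.88, 10.3 and 0.399 in La, 1.39, 28.2 and 1.10 in Ov, and 46.0, 43.0 and 25.7 in Bo. Of the second, Ov1 and Ov3 lay within the Li range and La3 below it. The drought-responsive RD22-like mRNA (XM_011016549.1) averaged 4.47 ± 5.67 FPKM (SD, n = 3) in Li and 76.2 ± 70.3 in Bo.

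The cell surface was represented by 7 members. ABC transporter G family member 23-like (XM_011005962.1), of a family that exports wax and other lipids, had close libraries in Li and in Bo, with 1.49, 1.40 and 1.55 FPKM in Li, 4.97, 2.66 and 6.80 in La, 7.23, 5.30 and 8.37 in Ov, and 18.5, 16.3 and 21.3 in Bo. Its Bo libraries lay well above all others. Vegetative cell wall protein gp1-like (XM_011001139.1) had group means of 8.95 ± 0.97 FPKM for Li (SD, n = 3), 39.5 ± 15.0 for La, 64.1 ± 28.6 for Ov and 77.9 ± 57.5 for Bo. Outer envelope pore protein 16-2 (XM_011011760.1), a channel of the chloroplast outer envelope counted with the 8 transporters, went from 24.5, 16.5 and 18.0 FPKM in Li to 87.7, 85.6 and 103 in Bo. The 12 members of ubiquitin and protein turnover included 4 F-box proteins and the E3 ligase COP1-like (XM_011048712.1), a repressor of light responses, which held 5.15, 11.5 and 14.5 FPKM in Li and 30.8, 43.8 and 36.0 in Bo.

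Several members of the other roles had a large first step. E3 ubiquitin-protein ligase At4g11680-like (XM_011046621.1) held 1.15, 0.288 and 0.229 FPKM in Li, 4.11, 5.26 and 11.9 in La, 11.9, 9.96 and 19.4 in Ov, and 12.7, 17.4 and 31.3 in Bo, with no overlap of Li with any other group. Probable mannitol dehydrogenase (XM_011027119.1), of the alcohol dehydrogenase family, held 3.46, 2.60 and 3.60 FPKM in Li and 15.4, 14.6 and 46.8 in La. It reached 36.8, 39.0 and 84.5 in Bo, which overlapped Ov. FK506-binding protein 4 (XM_011017496.1), a protein folding helper, held 1.43, 5.29 and 2.79 FPKM in Li, and its Bo libraries spread from 17.5 to 104 FPKM around the Ov libraries at 48.2, 31.3 and 68.3. RIBA 1-like (XM_011044800.1), an enzyme of riboflavin synthesis, held 4.90 and 10.2 FPKM in Bo1 and Bo2 against 43.5 in Bo3. In both of these mRNAs Bo3 made up most of the Bo mean.

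Other members rose late or in single libraries. NUP93A-like (XM_011014221.1), a part of the nuclear pore, held 2.82, 3.35 and 3.25 FPKM in Li and 29.0, 27.2 and 12.6 in Bo, with Ov1 at 12.7 inside the Bo range. NAD(H) kinase 1-like (XM_011047113.1) lay at or below 2.54 FPKM in all Li, La and Ov libraries and held 3.84, 5.86 and 7.42 in Bo. Its Bo libraries stood clear of all others, but the summed mRNAs of its gene did not separate Bo from Li. NHP2-like protein 1 (XM_011004207.1), an RNA-binding protein of ribosome synthesis, had its highest library in Ov1, at 39.3 FPKM, while Ov3 held 0.988 and lay within Li. Zinc finger protein ZAT11-like (XM_011028829.1) had its highest library in Ov3, at 34.1 FPKM, with Ov1 at 1.59 within Li. The large proline-rich protein BAG6-like (XM_011042970.1) was near 0 in Ov1 and Ov2, at 0.0994 and 0.0479 FPKM, but at 12.5 in Ov3. In these 3 members the Ov libraries were far apart. For the cationic amino acid transporter 6-like mRNA (XM_011034614.1), Bo1 at 3.54 FPKM lay below La3, Ov1 and Ov3.

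BUD13 homolog (XM_011033722.1), of the splicing machinery, held 0.812, 0.449 and 0.152 FPKM in Li and 4.92, 7.50 and 6.15 in Bo. F-box protein At2g39490 (XM_011024699.1) held 2.33, 0.592 and 0.424 FPKM in Li and 6.49, 9.56 and 11.3 in Bo. Tetraspanin-19-like (XM_011045058.1), of a family of membrane proteins, held 8.55, 8.77 and 11.7 FPKM in Bo. In all 3 the Ov and Bo libraries overlapped. The summed mRNAs of the BUD13 and tetraspanin-19-like genes did not separate Bo from Li. For BUD13 the mean sum was 16.4 FPKM in Li and 17.8 in Bo. Its isoform XM_011033721.1 averaged 15.9 FPKM in Li and 11.6 in Bo. Among the uncharacterized members, LOC105120623 (XM_011018895.1) reached 31.1 FPKM in Bo3 and LOC105137807 (XM_011043687.1) held 23.7, 57.7 and 46.8. The neighbours LOC105116366 (XM_011013695.1), at 6.74, 6.63 and 13.6 FPKM, and LOC105116365 (XM_011013693.1), at 6.64, 3.77 and 11.5, both had their highest Bo level in Bo3.

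Member mRNAs and the genes they belong to did not always move together. For 81 member genes the member was the only mRNA listed. The other 62 genes had further mRNAs, and the sum of a gene's mRNAs met the same rule in 23 of them, lay in every Bo library above every Li library in 44 and was lower in Bo than in Li in 3. The median log2 difference of the 62 sums was 1.47. Each sum holds the member that the rule chose, so these counts and this median follow in part from the rule. No share over all genes is given beside them. Since eXpress divides reads between the mRNAs of a gene, the level of one isoform depends on those of the others.

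In LOC105141655, which has no product name, isoforms went opposite ways in some libraries. Its member XM_011048939.1 held 1.64, 0.0378 and 0.0221 FPKM in Li, 0.0547, 0.0852 and 30.4 in La, 14.4, 0.441 and 26.6 in Ov, and 31.3, 52.9 and 47.4 in Bo. Its isoform XM_011048938.1 held 35.1, 29.3 and 37.2 FPKM in Li and 0.476, 0.343 and 45.2 in Bo (limma, adjusted p = 0.196). The low isoform values were those of Bo1 and Bo2, and Bo3 held both.

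For 3 genes the sum was lower in Bo. For FAM10 family protein At4g22670-like (LOC105132245), the member held 4.31% of the gene's Bo total, and the group mean of the total was 213 FPKM in Li, against 138, 128 and 129 FPKM for La, Ov and Bo. For the DAYSLEEPER-like gene (LOC105139916), named for an Arabidopsis transposase-derived protein, the member XM_011046551.1 held 1.08, 0.0266 and 0.755 FPKM in Li and 5.84, 5.22 and 5.17 in Bo. Its isoform XM_011046548.1 went the other way, from 6.99, 8.17 and 9.35 FPKM in Li to 0.765, 0.0544 and 0.490 in Bo (limma, adjusted p = 0.0620). The calcium-transporting ATPase 10 gene (LOC105120955), a plasma membrane calcium pump, gave 2 members, of which XM_011019405.1 held 1.04, 1.86 and 0.457 FPKM in Li and 5.44, 9.01 and 12.8 in Bo. The third mRNA of that gene, XM_011019403.1, held 34.0, 22.3 and 23.8 FPKM in Li and 5.81, 9.50 and 12.6 in Bo (adjusted p = 0.259).

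Of 99 other mRNAs of member genes that were tested, 70 had a higher and 29 a lower mean in Bo, with a median log2 difference of 0.54, beside 0.07 over all mRNAs tested. At an adjusted p under 0.05, 1 passed, beside 0.368% of all mRNAs called higher and 0.139% lower in Bo. At an unadjusted p under 0.05, 36 of the 99 did, beside 18.6% of all mRNAs tested. The one that passed, chosen after its values were seen, was a second mRNA of the BEL1-like homeodomain gene (XM_011048117.1), with 7.45, 2.44 and 3.36 FPKM in Li and 17.4, 13.2 and 20.7 in Bo (adjusted p = 0.0336). BEL1-like factors pair with KNOX factors in shoot tips and leaves.

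**Figure D5:**
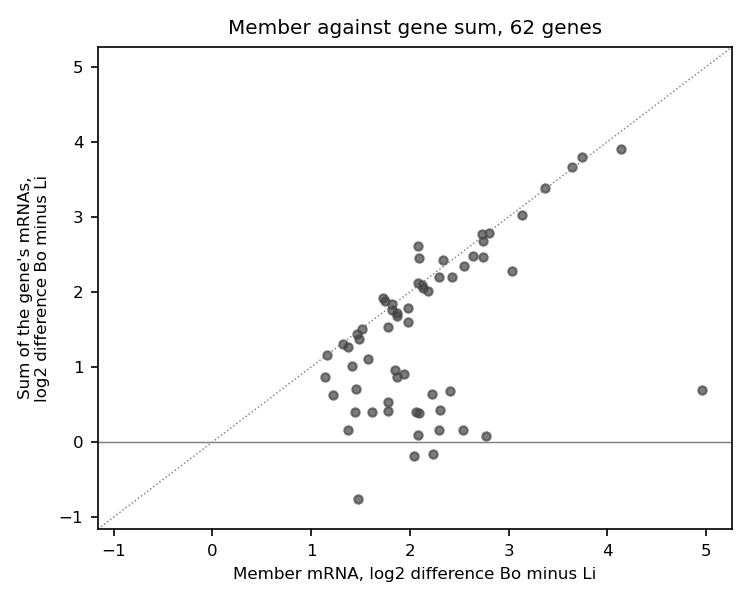
For the 62 member genes with other mRNAs, the log2 difference Bo minus Li of the sum of the gene's mRNAs (vertical axis) against that of its member (horizontal axis; the larger where a gene has 2 members), both on log2(FPKM + 1). The dotted line marks equal differences, and the 3 points below 0 on the vertical axis are the genes whose sum was lower in Bo.

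Long non-coding and circular RNAs were not used to choose the members. Of 38 lncRNAs on or beside member genes, 11 reached the filter of a mean of 0.5 FPKM, and 0 of them passed for Bo against Li (limma, smallest adjusted p = 0.125), with 1 at an unadjusted p under 0.05. Over all 1391 lncRNAs tested 1.01% passed at an adjusted p under 0.05, and their share at an unadjusted p under 0.05 is not given. The lowest p was that of XR_840985.1, beside the RD22-like gene, which held 2.79, 1.58 and 0.552 FPKM in Li, at most 7.58 in La, 5.71, 3.06 and 11.3 in Ov, and 5.53, 6.37 and 25.5 in Bo (log2 difference 2.13 ± 0.66, SE, adjusted p = 0.125). Its Bo libraries lay above all Li libraries, and Bo3 was the highest, as in the RD22-like mRNA itself.

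A circRNA is an RNA ring closed by a back-splice junction. Its level was given as RPM, the reads across that junction scaled to the reads of the library. Of 17 circRNAs on member genes, 6 were above 0 in at least 3 libraries. None of the 6 passed for Bo against Li (0 of 6; limma, smallest adjusted p = 0.303), beside 0% of all 244 circRNAs tested. An unadjusted p under 0.05 was found in 2 of the 6, and the share of all circRNAs at that threshold is not given. The ring with the smallest p (circRNA_1102) lay on the minus strand of scaffold NW_011500786.1 of PopEup_1.0, from 12661 to 37272, over the uncharacterized member gene LOC105116366. It was listed at 0 in all Li libraries, at 0.552 RPM in La2 and 0.562 in Ov2, and at 0.502, 0.276 and 1.06 RPM in Bo. The other La and Ov libraries were listed at 0.

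As a reference for the members, limma on log2(FPKM + 1) over all 32309 mRNAs with a mean of at least 0.5 FPKM called 40 of the 144 members for Bo against Li (adjusted p under 0.05), beside 0.368% of all mRNAs called higher in Bo. The rule used this contrast, so the count is no evidence on the members, and it fell to 8 without Li2, 10 without Li3, 21 without La1 and 10 without Bo2. For the other pairs the members called higher were 1 for La/Li (0.0124% of all mRNAs), 11 for Ov/Li (0.275%), 4 for Bo/La (0.121%) and 3 for Bo/Ov (0.102%). For Ov/La, 0 members were called (0% of all mRNAs). At an unadjusted p under 0.05 there were 8 members, and the share of all mRNAs at that threshold is not given. The La and Ov libraries of the same number deviated together, and with that number as a block the Ov/La count was again 0.

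Families of the leading members were followed through product names, which the study gave to transcripts it had chosen on these samples, so the direction of these lists is not independent evidence. All 8 SPL mRNAs so named, from 6 genes, were higher in Bo than in Li (median log2 difference 1.17), but 1 passed for Bo against Li, the member SPL16. The others included SPL8 (XM_011034863.1), at 12.1, 13.1 and 11.2 FPKM in Li and 30.5, 26.3 and 20.8 in Bo (adjusted p = 0.0579). SPL3 (XM_011045108.1), known by its symbol and without a product name, had a lower mean in Bo. It held 26.2, 36.4 and 52.0 FPKM in Li and 45.3, 27.6 and 6.10 in Bo (limma, adjusted p = 0.489). Of 7 MADS-box mRNAs, 3 passed, each a JOINTLESS-like member, and the non-member SOC1-like (XM_011036620.1), named for an Arabidopsis promoter of flowering, held 72.3, 42.8 and 102 FPKM in Li and 188, 174 and 105 in Bo (adjusted p = 0.120). Of 7 WRKY, 10 AP2/ERF and 7 MYB mRNAs tested, 1 each passed, all of them members, and 7, 6 and 5 had a higher mean in Bo. Of 3 GASA mRNAs 1 passed, and of 4 thaumatin-like mRNAs 1 passed, both members, while 1 GASA and 2 thaumatin-like mRNAs had a lower mean in Bo. Xyloglucan endotransglucosylase/hydrolases, which loosen the cell wall, held no member, and 4 of their 5 mRNAs had a lower mean in Bo, with 0 passing. Over all product name lists 10 calls were made, and 2 without Li2, 5 without Li3, 6 without La1, 4 without Bo2 and 20 without Bo3.

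Lists drawn from RefSeq gene symbols held few members. Genes with only a LOC number, as most member genes had, could not enter these lists. Among 18 tested mRNAs of leaf shape and growth regulators, 0 passed for Bo against Li and none was a member, with 9 higher in Bo (7 after upper-quartile scaling) and a median log2 difference of 0.01. Auxin signalling (16 tested), cyclins and their kinases (11 tested) and ethylene genes (9 tested) also had 0 calls and no member. Over all mRNAs 0.368% were called higher and 0.139% lower. The auxin and ethylene members described above have LOC numbers, so their absence here follows from how the lists were drawn. The 7 tested mRNAs with SPL or MADS-box symbols had 0 calls and a median log2 difference of -0.53, with 3 higher in Bo. That list also took in SEP1, which the study names stress enhanced protein 1. All 7 mRNAs of the chlorophyll-binding antenna, which mark green leaf tissue, had a lower mean in Bo (median log2 difference -1.06), and 1 passed, LHCA5 (XM_011031648.1), at 27.4, 25.0 and 12.5 FPKM in Li and 2.31, 3.60 and 3.01 in Bo (adjusted p = 0.0346). Their summed level ranged from 1297 to 2303 FPKM in Li, 947 to 1254 in La, 798 to 1258 in Ov, and 685 to 1214 in Bo. Shoot meristem markers of the KNOX group were low, with a sum of 2.42 to 12.5 FPKM in Li, 3.98 to 11.3 in La, 7.11 to 28.8 in Ov, and 2.07 to 4.33 in Bo. The part of these markers in the rise of the members was not tested.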

How the data were processed

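The 12 strand-specific total RNA libraries comprised 3 for each leaf shape, grouped by their titles. Levels of mRNAs and lncRNAs were deposited as FPKM, which the authors obtained with Bowtie2 and eXpress on the PopEup_1.0 RefSeq transcripts, dividing reads among similar transcripts. The lncRNAs were annotated or assembled with Cufflinks, and reads were aligned to the genome with TopHat2; versions are not given in the sources used here. The deposited circRNA values are RPM of junction reads, which the authors called with CIRI. The authors tested with DESeq, but FPKM are not counts and the depth behind them is unknown. The sum of FPKM ranged from 671282 to 770979 per library. Precision is therefore given by the spread between libraries, and p-values measure only that spread.

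Here log2(FPKM + 1) of mRNAs or lncRNAs with a mean of at least 0.5 FPKM was fitted with limma 3.58.1 (R 4.3.3) with a mean-variance trend, over all 12 libraries and 4 group means, with Benjamini-Hochberg adjustment. CircRNAs above 0 in at least 3 libraries were fitted without the trend on log2 of RPM plus 0.0116. Log2 differences on these scales understate the change of low mRNAs. The script was tested on simulated data for Bo/Li over 32309 mRNAs, where it recovered 58% of 100 mRNAs changed by 2 log2 units and 95% of 100 changed by 4, with 9 false calls.

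The members and lists were chosen with earlier results of these data known. The text names the first 10 members by the ratio (Bo mean + 1)/(Li mean + 1), the first 3 in each role, the member with the highest Bo mean, those at the edges of the rule and those beside another member; further members were named after their values were seen. Of the members that the rule picks, 1 is not reported here. Product names came from the study's annotation, and symbols and gene order from the RefSeq gene table of PopEup_1.0. That table is of another release, so none of its coordinates is given. Families planned by protein sequence were taken by product name or symbol, since sequences were not used here. Libraries of the same number deviated together from their group means in La and Ov, with correlations over mRNAs of 0.25, 0.64 and 0.66 for numbers 1, 2 and 3, so these were fitted with the number as a block too. For Ov and Bo the same-number correlations were 0.32, 0.04 and 0.29, and for La and Bo 0.14, -0.02 and 0.16. The number was not stated to mark a shared tree or day. Each library was left out in turn, and scaling, pseudocount, filter, block, the libraries in the fit and the rule's limits were varied.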

Additional observations from a re-analysis of the deposited data

How the results depend on the processing

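The number of mRNAs that met the rule ranged from 107 to 311 when 1 library was left out, and was 310 with Bo at least 1.5 times Li, 62 with at least 3 times, 292 with a Bo mean of at least 1 FPKM and 90 with at least 10 FPKM. Upper-quartile scaling left 105, all of them among the 144, and 112 genes met the rule by summed FPKM. Members called for Bo/Li ranged from 8 to 43 with 1 library left out, and were 22 after upper-quartile scaling, 25 in a fit of Li and Bo only and 27 without the filter. All mRNAs called for Bo/Li were 164, and ranged from 39 to 491 with 1 library left out, with 273 without the filter and 107 in a fit of Li and Bo only. Calls in the product name lists ranged from 2 to 20 with 1 library left out and were 6 in a fit of Li and Bo only. The cause of these shifts was not tested. With the replicate number as a block, 45 members, 213 mRNAs and 12 transcripts of the product name lists were called for Bo/Li. The numbers did not pair Li and Bo, whose same-numbered deviations correlated at -0.21, 0.07 and -0.15. For Ov/Li the block called 35 members and 595 mRNAs, against 11 and 99 without it, and for La/Li 3 members against 1. The lncRNAs and circRNAs on or beside members stayed at 0 calls under each alternative run. For the 41 members named by the rule, 574 values of the Bo minus Li difference under other settings included 0 of opposite sign and 25 that moved by 1 SD or more, all with a pseudocount of 0.1 FPKM, which raised them. Upper-quartile scaling moved the median difference over all mRNAs from 0.07 to -0.01. Depth is unknown, so low FPKM values cannot be given a counting error.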
